A study of Mus musculus with 12 samples.

Results

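Il10, Il21, Il22, Maf, Ahr, Il1r1, Ccr6, Rora and Prdm1 were followed in RNA sequencing libraries of mouse naive CD4+ T cells, the cells that become helper T cells once they meet antigen. The 9 genes were taken by symbol, and all 9 of 9 were among the 32698 named rows of the count matrix and among the 13196 genes that passed the filter on low counts. The cells were activated in culture with antibodies to the T cell receptor complex (anti-CD3) and to the costimulatory receptor CD28. They were WT or lacked Keap1 (KKO) and were harvested at 24 h or 48 h, with 3 libraries in each of the 4 groups. KEAP1 normally holds the transcription factor NRF2 low by targeting it for destruction. The labels do not give the strain, the age or sex of the mice, the way Keap1 was deleted or the cells in which the deletion acts. They also do not say whether each library came from a separate mouse. P-values thus measure the spread between these libraries, part of which may be technical.

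The products of these genes fall into a few roles. IL-10 restrains inflammation, IL-21 supports B cell responses and acts back on T cells, and IL-22 acts on epithelia and other cells that are not blood cells. MAF and AHR are transcription factors known to act at the genes of these cytokines in helper T cells, AHR being switched on by small aromatic molecules. PRDM1 (also called Blimp-1) is a repressor of effector lymphocytes that also takes part in IL-10 production. RORA is a nuclear receptor of type 17 cells, and IL1R1 and CCR6 are the interleukin-1 receptor and a chemokine receptor that mark those cells.

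Keap1 transcripts checked the genotype labels first. In CPM (counts per 1000000 counts of the scaled library total), Keap1 stood at 106, 109 and 106 in WT at 24 h and at 16.5, 15.7 and 17.5 in KKO. At 48 h it stood at 124, 132 and 122 in WT and at 22.5, 20.7 and 20.2 in KKO, so that each KKO library lay below every WT library. Library totals ran from 17786532 to 32607684 counts. In 2 KKO libraries, replicate 1 of 24 h and replicate 3 of 48 h, Xist and Y-linked transcripts were found together (the mixed libraries below), while the other 10 libraries held mainly one kind. KKO replicate 1 was mixed at 24 h and mainly Y-linked at 48 h, and KKO replicate 3 was the reverse, so these numbers did not carry the same reading at both times. At each time 2 of 3 WT libraries and 1 of 3 KKO libraries, replicate 2, held mainly Xist, so that this reading was not balanced between the genotypes. As labelled, each group held a mainly Xist and a mainly Y-linked library, so its libraries did not all come from the same mouse. With the share of Y-linked transcripts as a covariate the 48 h calls of the 9 genes were as given below. KKO replicate 2 stood apart at 48 h and was the lowest of the 3 KKO libraries for 8 of the 9 genes, all except Ccr6, for which it was the highest. At 24 h KKO replicate 2 was the lowest for 6 of the 9.

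After 48 h, 7 of the 9 genes were higher in KKO than in WT, 1 was lower and 1 was not called. Il10, Il21, Il22, Maf, Ahr, Il1r1 and Prdm1 rose, by 2.88-fold for Prdm1 to 11.0-fold for Il10. Ccr6 fell, and Rora was not called. Of all genes tested 24.3% were called at 48 h, 12.4% higher and 11.9% lower. At 24 h 1 of the 9 was called, Prdm1, which was higher, against 2.33% of all genes tested (1.89% higher and 0.432% lower). The median log2 fold change of the 9 genes was 2.20 at 48 h and 0.71 at 24 h, beside -0.0042 and -0.00397 over all genes tested. A gene was called at an adjusted p under 0.05 in edgeR's quasi-likelihood test, adjusted over all genes tested by the Benjamini-Hochberg method, and this holds for each adjusted p below. In RNA from whole cultures, fewer cells of a type and less RNA per cell cannot be told apart.

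**Figure D1:**
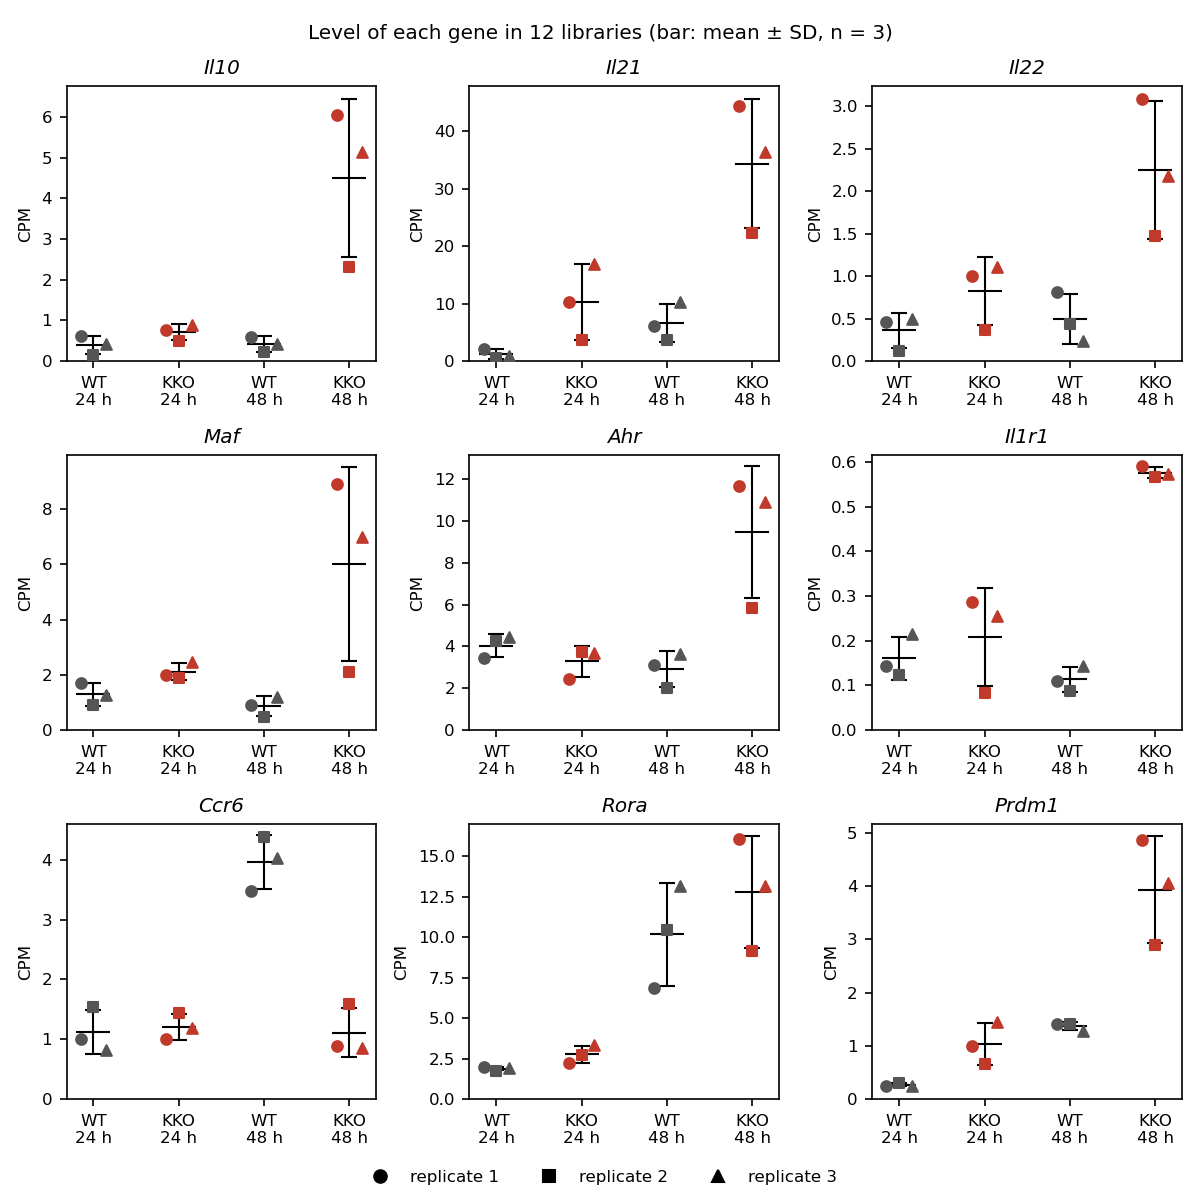
Level of each of the 9 genes in CPM on a linear axis from 0, 1 point per library with a symbol for each replicate number, by genotype and time, with bars for the mean ± SD (n = 3). At 48 h the 3 KKO libraries lie above the 3 WT libraries for 7 genes and below them for Ccr6, and the groups overlap for Rora.

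Il10 carried the largest fold change of the 9 at 48 h. The gene lies on chromosome 1 at 131019845-131024974 on the plus strand (mm10). Its level at 48 h was 0.598, 0.221 and 0.427 CPM in WT replicates 1 to 3, from 11, 5 and 9 counts, and 6.05, 2.32 and 5.15 CPM in KKO, from 123, 41 and 108 counts. The lowest KKO library was well above the highest WT library. The means were 0.415 ± 0.189 and 4.51 ± 1.95 CPM (SD, n = 3), and Il10 differed by 3.46 ± 0.47 log2 units, or 11.0-fold (SE, adjusted p = 2.272e-04). At 24 h Il10 stood at 0.607, 0.154 and 0.429 CPM in WT and at 0.751, 0.493 and 0.894 CPM in KKO, and the groups overlapped (0.87 ± 0.52 SE, adjusted p = 0.627). From 24 h to 48 h Il10 rose 6.32-fold in KKO (2.66 ± 0.42 SE, adjusted p = 5.666e-05). In WT the 2 times had close means, 0.397 and 0.415 CPM, and the log2 difference was 0.06 ± 0.59 (SE, adjusted p = 0.934). The genotype effect was 2.60 ± 0.72 log2 units larger at 48 h than at 24 h, which missed the threshold (SE, adjusted p = 0.0557). It stayed uncalled in 17 of 22 alternatives, with an adjusted p of up to 0.201. Without WT replicate 2 at 24 h the adjusted p was 0.0463, and without KKO replicate 2 at 48 h it was 0.00394. The difference was also called by DESeq2 (adjusted p = 0.00873), with the replicate number as a block (adjusted p = 0.00881) and with the share of Y-linked transcripts as a covariate (adjusted p = 0.0186). The block is limited, because the numbers did not pair WT with KKO libraries or KKO libraries across time.

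Il21 was the most abundant of the 3 cytokines in KKO. It lies on chromosome 3 at 37222759-37232636 on the minus strand, and its exons overlap those of Gm12534 on the other strand. Whether reads were counted by strand is not given in the sources used here, so reads of the 2 genes cannot be told apart, and the same holds for Maf with Gm15655, Ahr with Gm48236 and Rora with Gm15511. At 48 h Il21 stood at 6.09, 3.63 and 10.2 CPM in WT and at 44.4, 22.2 and 36.4 CPM in KKO. Each KKO library was above every WT library, and the means were 6.66 ± 3.35 and 34.3 ± 11.2 CPM (SD, n = 3). The log2 fold change was 2.37 ± 0.60 (SE, adjusted p = 0.0229). This call was lost when any of 4 libraries was left out, all of 48 h: the adjusted p was 0.0769 and 0.0723 on omitting WT replicates 1 and 2, and 0.0934 and 0.0702 on omitting KKO replicates 1 and 3. It was also lost without the 2 mixed libraries (adjusted p = 0.0980).

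Il21 was already apart at 24 h, at 2.11, 0.462 and 0.929 CPM in WT against 10.2, 3.70 and 16.9 CPM in KKO. The counts behind these values were 59, 15 and 26 in WT and 285, 90 and 397 in KKO, and the groups did not overlap. The log2 fold change of 3.16 ± 0.74 was not called (SE, adjusted p = 0.0780). It was called without KKO replicate 2 at 24 h (3.55, adjusted p = 0.0189) and by DESeq2 (3.14, adjusted p = 3.36e-04). Non-overlap in this direction was seen for 4 of the 9 genes at 24 h (Il21, Maf, Rora and Prdm1), against 9.93% of all genes tested (9.51% in the other direction). Il21 rose with time in both genotypes, 5.80-fold in WT (2.54 ± 0.78 SE, adjusted p = 0.0196) and 3.36-fold in KKO (1.75 ± 0.57 SE, adjusted p = 0.0224). The WT rise was lost without WT replicate 2 (adjusted p = 0.0579) or 3 (adjusted p = 0.0534) at 24 h or WT replicate 3 at 48 h (adjusted p = 0.0710). The KKO rise was lost in 3 of the 12 fits that omitted a library, namely replicate 1 of 24 h and replicates 1 and 3 of 48 h in KKO (adjusted p = 0.0558, 0.0775 and 0.0562). This rise was also lost without the 2 mixed libraries (adjusted p = 0.114) and in a fit of the 6 compared libraries alone (adjusted p = 0.0506). The genotype effects at the 2 times differed by -0.79 log2 units, with a 95% interval of -3.03 to 1.46 (adjusted p = 0.678).

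Il22 was the least abundant cytokine of the 3 in KKO at 48 h. It lies on chromosome 10 at 118204942-118210047 on the plus strand. At 48 h it stood at 0.809, 0.442 and 0.237 CPM in WT and at 3.09, 1.47 and 2.18 CPM in KKO, with every KKO library above the WT libraries. The log2 fold change was 2.20 ± 0.52, or 4.60-fold (SE, adjusted p = 0.00788). At 24 h the values were 0.464, 0.123 and 0.50 CPM in WT and 1.0, 0.370 and 1.11 CPM in KKO. The lowest KKO library lay below 2 WT libraries there, and the difference was not called (1.21 ± 0.55 SE, adjusted p = 0.417). Il22 rose from 24 h to 48 h in KKO (1.45 ± 0.47 SE, adjusted p = 0.0127), but not past the threshold without KKO replicate 2 at 24 h (adjusted p = 0.0512) or KKO replicate 1 at 48 h (adjusted p = 0.0660). In WT the same difference was 0.45 ± 0.61 (SE, adjusted p = 0.538). The test of the difference between the 2 genotype effects gave 0.99, with a 95% interval of -0.66 to 2.64 (adjusted p = 0.467).

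Of the transcription factors, Maf changed most with genotype at 48 h. Maf lies on chromosome 8 at 115682942-115707794 on the minus strand. At 48 h it stood at 0.925, 0.486 and 1.19 CPM in WT and at 8.90, 2.09 and 7.01 CPM in KKO. KKO replicates 1 and 3 were several times above every WT library, and KKO replicate 2 was nearer to WT. The log2 fold change was 2.81 ± 0.48, or 7.0-fold (SE, adjusted p = 0.00179). At 24 h Maf was at 1.71, 0.893 and 1.29 CPM in WT and at 2.0, 1.89 and 2.47 CPM in KKO. These groups did not overlap either, and the smaller difference of 0.71 ± 0.46 was not called (SE, adjusted p = 0.690). The increase of the genotype effect from 24 h to 48 h, 2.09 ± 0.67 log2 units, missed the threshold (SE, adjusted p = 0.0948). It stayed uncalled in 19 of 23 alternatives, with an adjusted p of up to 0.277. The threshold was passed without KKO replicate 2 at 48 h (adjusted p = 8.656e-04) and by DESeq2 (adjusted p = 0.0191). It was also passed with the Y-linked covariate (adjusted p = 0.0329) and with the replicate block (adjusted p = 0.0329), which has the limit given for Il10. In KKO Maf rose 2.85-fold with time (1.51 ± 0.42 SE, adjusted p = 0.00637), although the libraries of the 2 times overlapped, and the call was lost without the 2 mixed libraries (adjusted p = 0.0626).

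Ahr rose in KKO at 48 h, while at 24 h its libraries overlapped and no difference was called. Ahr lies on chromosome 12 at 35497974-35535038 on the minus strand. At 24 h it stood at 3.43, 4.25 and 4.43 CPM in WT and at 2.43, 3.74 and 3.66 CPM in KKO (-0.31 ± 0.27 SE, adjusted p = 0.836). At 48 h it stood at 3.10, 1.99 and 3.65 CPM in WT and at 11.7, 5.83 and 10.9 CPM in KKO, with no overlap. The log2 fold change was 1.71 ± 0.28, or 3.27-fold (SE, adjusted p = 9.661e-04). The genotype effect was 2.02 ± 0.39 log2 units larger at 48 h than at 24 h (SE, adjusted p = 0.0143). Ahr was 1 of 2 genes of the 9 for which this difference was called, 1 upward and 1 downward, against 4.18% of all genes tested (1.46% upward and 2.72% downward). Without the 2 mixed libraries the adjusted p was 0.108. With time Ahr rose 2.91-fold in KKO (1.54 ± 0.27 SE, adjusted p = 1.491e-04), and in WT the difference was -0.48 ± 0.28 (SE, adjusted p = 0.158).

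Prdm1 was higher in KKO at both times. It lies on chromosome 10 at 44437177-44528501 on the minus strand. At 24 h it stood at 0.250, 0.308 and 0.250 CPM in WT and at 1.0, 0.657 and 1.45 CPM in KKO, with no overlap. That is a 3.76-fold difference (1.91 ± 0.36 SE, adjusted p = 0.00894), and the adjusted p was 0.0568 without KKO replicate 3 at 24 h and 0.0623 without the 2 mixed libraries. At 48 h the values were 1.41, 1.41 and 1.28 CPM in WT and 4.87, 2.89 and 4.05 CPM in KKO, a 2.88-fold difference (1.52 ± 0.27 SE, adjusted p = 0.00162). Prdm1 also rose with time in both genotypes, 4.98-fold in WT (2.32 ± 0.36 SE, adjusted p = 4.706e-05) and 3.81-fold in KKO (1.93 ± 0.28 SE, adjusted p = 1.938e-05). The 2 genotype effects differed by -0.39 log2 units, with a 95% interval of -1.37 to 0.60 (adjusted p = 0.643).

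Rora was the one gene of the 9 that was not called between the genotypes at either time. It lies on chromosome 9 at 68653786-69388246 on the plus strand. At 48 h it stood at 6.85, 10.5 and 13.2 CPM in WT and at 16.1, 9.17 and 13.2 CPM in KKO, and the groups overlapped. The log2 fold change of 0.33 had a 95% interval of -0.15 to 0.81 (adjusted p = 0.301). At 24 h it stood at 1.96, 1.76 and 1.89 CPM in WT and at 2.25, 2.71 and 3.32 CPM in KKO, and each KKO library was above the WT libraries, with a log2 fold change of 0.56 and an interval of -0.04 to 1.16 (adjusted p = 0.511). Rora rose with time, 5.45-fold in WT (2.45 ± 0.26 SE, adjusted p = 2.44e-06) and 4.66-fold in KKO (2.22 ± 0.25 SE, adjusted p = 2.822e-06).

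Ccr6 was the gene that fell. It lies on chromosome 17 at 8236043-8257141 on the plus strand. At 24 h it stood at 1.0, 1.54 and 0.821 CPM in WT and at 1.0, 1.44 and 1.19 CPM in KKO (0.09 ± 0.29 SE, adjusted p = 0.987). By 48 h it stood at 3.48, 4.38 and 4.03 CPM in WT and at 0.885, 1.58 and 0.859 CPM in KKO. WT had risen 3.50-fold (1.81 ± 0.27 SE, adjusted p = 4.329e-05), while in KKO the change with time was -0.14 ± 0.31 (SE, adjusted p = 0.712). The genotype difference at 48 h was thus 3.61-fold downward (-1.85 ± 0.29 SE, adjusted p = 5.556e-04) with no overlap of the libraries. The genotype effects at the 2 times differed by -1.95 ± 0.41 (SE, adjusted p = 0.0187). That last call was lost without WT replicate 3 (adjusted p = 0.0551) or KKO replicate 2 (adjusted p = 0.0524) at 24 h, without WT replicate 2 (adjusted p = 0.0643), KKO replicate 1 (adjusted p = 0.0530) or KKO replicate 3 (adjusted p = 0.0585) at 48 h, and without the 2 mixed libraries (adjusted p = 0.0983).

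Il1r1 was close to the limit of what this depth shows. It lies on chromosome 1 at 40225080-40317257 on the plus strand. At 48 h its counts were 2, 2 and 3 in WT and 12, 10 and 12 in KKO, or 0.109, 0.0884 and 0.142 CPM against 0.590, 0.566 and 0.572 CPM. The groups did not overlap, and the log2 fold change was 2.30 ± 0.54 (SE, adjusted p = 0.00683). From the pooled counts of 34 and 7 the ratio of depth-scaled counts was 5.11, with an exact 95% interval of 2.23 to 13.7 that covers counting error only. At 24 h the counts were 4, 4 and 6 in WT and 8, 2 and 6 in KKO (0.39 ± 0.53 SE, adjusted p = 0.934). The 2 genotype effects differed by 1.91 ± 0.78 log2 units (SE, adjusted p = 0.158). In KKO Il1r1 rose 2.70-fold with time (1.43 ± 0.46 SE, adjusted p = 0.0109).

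**Figure D2:**
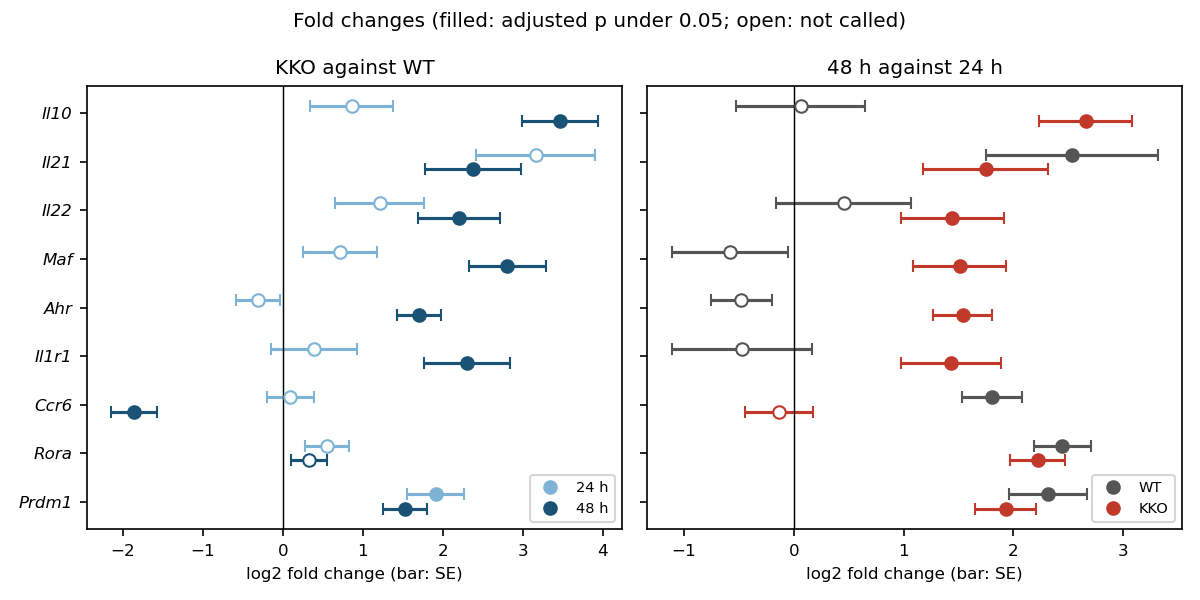
Log2 fold change of the 9 genes from edgeR, of KKO against WT at each time (left) and of 48 h against 24 h in each genotype (right), with bars of 1 SE, filled points where called and open points where not. On the left Prdm1 is called at 24 h and 8 genes are called at 48 h, Ccr6 downward, and on the right 4 genes are called in WT and 8 in KKO.

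Over time alone, 4 of the 9 genes rose in WT (Il21, Ccr6, Rora and Prdm1), 0 fell and 5 were not called, in a comparison where 60.8% of all genes tested were called, 31.0% higher and 29.7% lower. Those 4 had WT libraries of 48 h entirely above those of 24 h, as had 34.4% of all genes tested, and 34.0% had them entirely below. In KKO 8 of the 9 rose, all but Ccr6, against 67.8% of all genes called, 34.4% higher and 33.4% lower. The libraries of 48 h lay entirely above those of 24 h for 7 of these 8, all but Maf, where 35.7% of all genes tested had such a split upward and 34.8% downward. The difference in each gene's change with time between the genotypes is the same quantity as the difference between the genotype effects given above, and it was called for Ahr and Ccr6. All 8 genes called between the genotypes at 48 h had KKO libraries entirely on one side of the WT libraries, 7 higher and 1 lower, where 17.1% and 16.2% of all genes tested had such a split upward and downward.

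Levels of different genes were set side by side per kilobase of exon (mean CPM divided by the union of exons in GENCODE M21). In WT at 48 h the order ran from Ccr6 (1.71) through Il21 (1.27), Rora (0.778), Ahr (0.473), Il22 (0.447), Il10 (0.317), Prdm1 (0.246) and Maf (0.105) to Il1r1 (0.0178). Neighbours in this order overlapped between libraries except Prdm1 with Maf and Maf with Il1r1. In KKO at 48 h Il21 was first (6.53), followed by Il10 (3.44), Il22 (2.03), Ahr (1.53), Rora (0.980), Maf (0.728), Prdm1 (0.706), Ccr6 (0.478) and Il1r1 (0.0905). The 3 cytokines thus headed the KKO order, and Ccr6, first in WT, stood second to last. All neighbours overlapped between libraries in KKO except Ccr6 with Il1r1. At 24 h the first place was held by Ahr in WT (0.655) and by Il21 in KKO (1.95).

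The promoter windows of the 3 genes below are shown because they belong to a cytokine that was called higher at 48 h, to the regulator called at both times and to the gene that fell. Each holds the 250 bases before the RefSeq start (GRCm38.p6), read 5′ to 3′ on the gene's strand. RefSeq windows were at hand for 6 of the 9 genes, and those of Il10, Maf and Ahr were not used here. Il21 is at chr3:37232637-37232886 (minus strand), Prdm1 at chr10:44458749-44458998 (minus strand) and the first of the 2 Ccr6 windows at chr17:8235793-8236042 (plus strand). Capitals mark matches, on either strand, to the letters GCGTG (bound by AHR with ARNT, CACGC when it lies on the other strand), TGCTGA (the core of a MAF site), AGGTCA (the core of a ROR site, TGACCT on the other strand) and TGANTCA (AP-1).
Il21: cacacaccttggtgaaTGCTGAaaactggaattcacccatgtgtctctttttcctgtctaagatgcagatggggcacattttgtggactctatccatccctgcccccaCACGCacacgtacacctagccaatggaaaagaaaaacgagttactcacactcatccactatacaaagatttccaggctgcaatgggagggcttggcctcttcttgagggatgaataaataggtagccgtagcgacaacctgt
Prdm1: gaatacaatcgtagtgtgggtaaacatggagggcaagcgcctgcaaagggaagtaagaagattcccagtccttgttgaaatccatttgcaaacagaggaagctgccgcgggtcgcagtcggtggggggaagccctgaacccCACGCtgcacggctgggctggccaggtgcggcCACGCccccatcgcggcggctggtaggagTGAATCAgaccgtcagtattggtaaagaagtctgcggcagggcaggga
Ccr6: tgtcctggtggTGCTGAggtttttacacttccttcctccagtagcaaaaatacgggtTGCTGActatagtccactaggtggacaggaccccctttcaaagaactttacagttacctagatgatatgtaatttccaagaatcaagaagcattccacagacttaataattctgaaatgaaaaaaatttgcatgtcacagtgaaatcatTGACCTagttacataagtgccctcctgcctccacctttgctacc
The Il21 window held 1 match to TGCTGA and 1 to GCGTG, starting 234 and 142 bases before the gene's start. In the Prdm1 window 2 matches to GCGTG lay 109 and 77 bases before the start and 1 to TGANTCA lay 48 bases before it. This RefSeq start lies inside the Prdm1 span given above, whose own 5′ end is at 44528501. The Ccr6 window held 2 matches to TGCTGA, 239 and 193 bases before the start, and 1 to AGGTCA 44 bases before it. No matches overlapped in these windows. Of the windows not shown, that of Il22, also a cytokine called higher at 48 h, held 0 matches to these letters. The second Ccr6 window held 0 as well. The window of Rora, not called between the genotypes, held 1 match to GCGTG. The first Il1r1 window held 1 to TGCTGA and the second 1 to GCGTG. Among all 32851 windows of this length GCGTG was found in 28.2%, TGCTGA in 16.1%, AGGTCA in 14% and TGANTCA in 6.75%. The letters TGACNNNGC, which NRF2 binds with a small MAF protein, were in 10.2% of all windows and in none of the windows of these 6 genes. A match says only that these letters are present.

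Genes around the 9 were counted from lists of pathway members. Over all genes tested, 12.4% were called higher and 11.9% lower at 48 h, and 1.89% and 0.432% at 24 h. List counts, also those of the markers below, stand beside these shares. Omitting 1 library moved the count over all genes to between 1405 and 5362 at 48 h (3209 as reported). List counts with libraries left out therefore cannot be set against these shares. Among receptors and signalling genes of IL-10, IL-21 and IL-22, 6 of 12 tested rose at 48 h, 2 fell and 4 were not called (median log2 fold change 0.16). Socs3, an inhibitor of cytokine signalling that STAT3 induces, rose most, from 89.0 to 251 CPM (1.50 ± 0.26 SE, adjusted p = 0.00427). Il10ra, the ligand-binding chain of the IL-10 receptor, rose from 74.9 to 112 CPM (0.57 ± 0.13 SE, adjusted p = 0.00809). The inhibitor Socs1 rose (0.44 ± 0.07 SE, adjusted p = 8.705e-04). Il22ra1, the specific chain of the IL-22 receptor, had 0 counts in every library. At 24 h 3 of the 12 rose, among them Il10ra (0.94, adjusted p = 0.00985) and Socs1 (0.57, adjusted p = 6.053e-04), and 0 fell by edgeR or limma-voom and 2 by DESeq2. Without the 2 mixed libraries, 3 rose and 2 fell at 48 h and 1 rose at 24 h.

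Among other cytokines of the IL-10 and common gamma chain families, 6 of 10 did not pass the filter, and of the 4 tested 1 rose and 1 fell at 48 h (median 0.72). Without the 2 mixed libraries 1 rose and 0 fell. Il24, a cytokine of the IL-10 family, rose from 11.1 to 83.6 CPM (2.92 ± 0.21 SE, adjusted p = 8.82e-06). Il2, the T cell growth factor, fell from 86.5 to 25.8 CPM (-1.76 ± 0.44 SE, adjusted p = 0.0227). At 24 h 2 of the 4 were higher and 0 lower (median 1.75), and 1 was higher without the 2 mixed libraries or by limma-voom. Il24 was called higher at 24 h too (3.0 ± 0.63 SE, adjusted p = 0.0275), from 10 counts over the WT libraries and 71 over the KKO libraries. Its genotype effects at the 2 times differed by -0.08 (adjusted p = 0.936).

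Transcription factors known to act at Il10 or Il21 in T cells moved in both directions at 48 h: 8 of 15 rose, 4 fell and 3 were not called (median 0.20). At 24 h 4 rose, 1 fell and 10 were not called. Without the 2 mixed libraries 5 rose and 3 fell at 48 h, and 3 rose and 0 fell at 24 h. Nfil3, a basic leucine zipper factor, rose from 86.4 to 179 CPM at 48 h (1.05 ± 0.14 SE, adjusted p = 4.04e-04). Batf, a partner of JUN and IRF4, rose from 46.2 to 91.5 CPM (0.99 ± 0.10 SE, adjusted p = 3.305e-05). Ikzf3 (Aiolos) rose by 0.79 ± 0.12, and Egr3, an early growth response factor, fell by 0.91 ± 0.10 on the log2 scale (SE, adjusted p = 0.0011 and 6.59e-05).

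Of 9 tested AHR partners and targets, 4 rose at 48 h and 5 were not called (median 0.12). Nqo1, Entpd1 and Tiparp were among the 4. Without KKO replicate 2 at 48 h 6 rose and 1 fell, and without the 2 mixed libraries 2 rose. Nqo1, which NRF2 also controls, rose from 0.318 to 4.63 CPM (3.83 ± 0.22 SE, adjusted p = 9.794e-08) and was the 1 gene of this list called at 24 h, at 0.281 in WT and 6.80 CPM in KKO. Tiparp, an ADP-ribosyltransferase, rose from 19.7 to 43.5 CPM (1.14 ± 0.25 SE, adjusted p = 0.00897), and Entpd1 (CD39) from 1.23 to 3.55 CPM (1.54 ± 0.37 SE, adjusted p = 0.00919). Cyp1a1, a standard reporter of AHR activity named here after its values were seen, was not called at 48 h (-0.88 ± 0.84 SE, adjusted p = 0.444). In WT it went from 1.83 CPM at 24 h to 0.129 CPM at 48 h, and in KKO from 1.56 to 0.0646 CPM. Its 48 h levels rest on 8 counts over the WT libraries and 4 over the KKO libraries, too few to read AHR activity from. Ahrr, of the same list, had 12 and 7 counts at 48 h and was not called either (-0.68, adjusted p = 0.455).

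None of the 5 tested MAF relatives and BACH factors was called at 48 h by edgeR (median 0.15). Maff, at 0.42 ± 0.15, was the nearest to the threshold (SE, adjusted p = 0.05005). Mafg stood at 0.13 (adjusted p = 0.251), Mafk at -0.21 (adjusted p = 0.119), Bach1 at 0.23 (adjusted p = 0.214) and Mafa at 0.15 (adjusted p = 0.845). An unadjusted p under 0.05 was reached by 2 of the 5, DESeq2 and limma-voom each called 1 of them, and without KKO replicate 2 at 48 h 2 were called higher and 1 lower. At 24 h Mafg was called higher (0.44, adjusted p = 0.00789).

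Type 17 genes were mostly too low to test, with 5 of 8 under the filter. Of the 3 tested, 1 was higher at 48 h, 0 were lower and 2 were not called (median 1.35), and 0 were called at 24 h. Those not called at 48 h were Il17f (1.35, adjusted p = 0.157) and Il12rb1 (0.08, adjusted p = 0.381). Il17a had 15 counts over the 3 WT libraries and 5 over the 3 KKO libraries at 48 h, Ccl20, the ligand of CCR6, had 8 and 1, and Il23r had 8 and 22.

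In the IL-1 receptor family 3 of 13 tested genes rose, 4 fell and 6 were not called at 48 h (median 0.10). Without the 2 mixed libraries 3 rose and 1 fell, and without KKO replicate 2 at 48 h 5 rose and 4 fell. The decoy receptor gene Il1r2 rose from 0.813 to 2.55 CPM (1.66 ± 0.32 SE, adjusted p = 0.00227), and the receptor antagonist gene Il1rn from 2.86 to 6.93 CPM (1.28 ± 0.29 SE, adjusted p = 0.00722). Il18rap, a chain of the IL-18 receptor, fell from 5.4 to 2.36 CPM (-1.20 ± 0.23 SE, adjusted p = 0.00257), and Il1rl2, of the IL-36 receptor, fell from 2.72 to 1.68 CPM (adjusted p = 0.0397). Il1r1 and its decoy Il1r2 were thus both higher in KKO at 48 h. Il1rap, of the same list, was lower, at 12.5 CPM in WT and 8.36 CPM in KKO (-0.59 ± 0.14 SE, adjusted p = 0.00766). At 24 h 1 of the 13 was called, Il1rn, which was higher (1.91, adjusted p = 0.0197), and 0 were called without the 2 mixed libraries or by limma-voom.

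Surface receptors of T cells that make IL-10 or IL-21 gave 4 of 13 higher, 3 lower and 6 not called at 48 h (median 0.13), and 3 higher and 1 lower at 24 h. At 24 h 0 were higher and 1 lower without the 2 mixed libraries, and 3 were higher and 3 lower without KKO replicate 2 of 48 h, which enters that comparison through the shared fit. Cxcr5, the receptor that leads T cells to B cell follicles, rose from 4.48 to 12 CPM (1.43 ± 0.17 SE, adjusted p = 6.59e-05), and the inhibitory receptors Ctla4 (0.87, adjusted p = 0.0405) and Tigit (0.65, adjusted p = 6.08e-04) and the IL-6 receptor gene Il6ra (0.73, adjusted p = 0.00495) rose too. Of 7 genes that PRDM1 is known to repress, 3 fell, 1 rose and 3 were not called at 48 h (median -0.17), and 1 fell at 24 h. Without the 2 mixed libraries 2 fell and 0 rose at 48 h and 0 were called at 24 h, and without KKO replicate 2 of 48 h 4 fell and 0 rose at 48 h. Il2, Id3 (-0.90, adjusted p = 3.562e-04) and Myc (-0.45, adjusted p = 0.00231) fell, and Pax5, the B cell identity factor, rose from 1.11 to 2.51 CPM (1.17, adjusted p = 0.0222). The log2 fold changes of these lists share their libraries with those of the 9 genes.

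**Figure D3:**
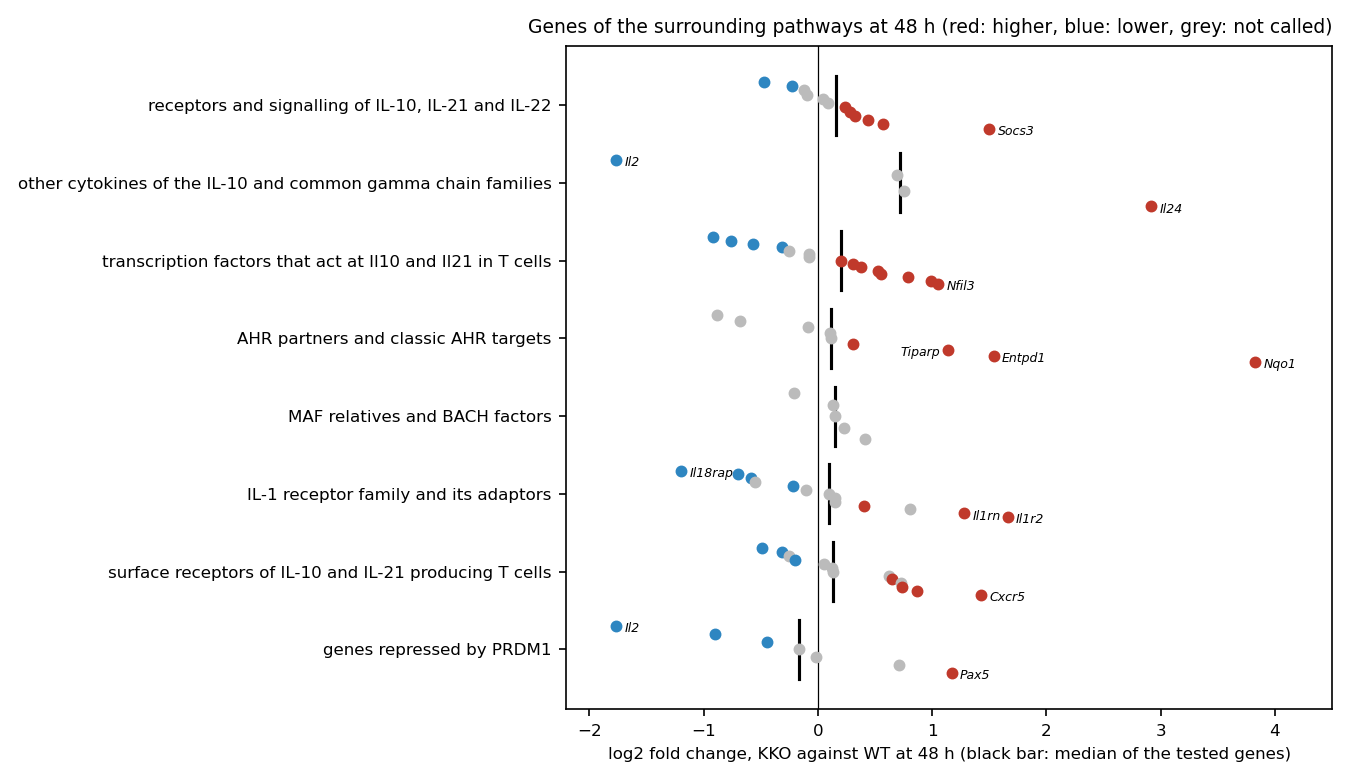
Log2 fold change of KKO against WT at 48 h for each tested gene of 8 pathway lists, red where called higher, blue where called lower and grey where not called, with the list median as a black bar. List medians lie between -0.17 and 0.72, and Nqo1 and Il24 lie farthest to the right.

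Markers of cell types were summed in each library beside these results. The 8 CD4 T cell genes summed at 24 h to 2698 to 2801 CPM (WT) and 2520 to 2573 CPM (KKO), so that each KKO library lay below every WT library. At 48 h they summed to 2241 to 2368 CPM (WT) and 2172 to 2417 CPM (KKO), and the groups overlapped. By gene, edgeR called none of them between the genotypes (5 of 8 with an unadjusted p under 0.05 at 24 h and 0 at 48 h). DESeq2 called 2 of them lower at 24 h and limma-voom called 0 at both times, while without KKO replicate 2 at 48 h 3 were called higher at 48 h. Genes of γδ T cells and type 3 innate lymphoid cells, which can make IL-22, summed at 48 h to 5.66 to 8.02 CPM in the WT libraries and to 11.5 to 21.4 CPM in the KKO libraries. Of the 6 tested, 4 were higher at 48 h, with Trdc, the γδ T cell receptor constant gene, at 2.32 and 6.15 CPM. The 2 not called were Sox13 (0.02, adjusted p = 0.969) and Kit (0.87, adjusted p = 0.114). At 24 h the sums were 12.9 to 14.4 CPM in WT and 16.6 to 17.8 CPM in KKO, and 1 of the 6 was higher (0 without the 2 mixed libraries).

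Regulatory T cell genes summed at 48 h to 1331 to 1506 CPM (WT) and 1912 to 2479 CPM (KKO), and to 677 to 707 and 746 to 859 CPM at 24 h. Most of the sum came from Il2ra (at 48 h 1135 CPM for WT and 1829 CPM for KKO) and Ctla4 (211 and 386 CPM), which activated T cells also express. At 48 h 4 of these 6 genes were higher and 1 lower (Nrp1), and 2 were higher and 0 lower without the 2 mixed libraries, while Foxp3, the defining factor, went from 2.79 to 3.82 CPM and was not called (0.47, adjusted p = 0.162). B and plasma cell genes summed at 48 h to 21.8 to 28.1 CPM (WT) and 36.7 to 47.4 CPM (KKO; 5 of 8 tested higher) and to 17.3 to 21.3 and 30.2 to 37.8 CPM at 24 h (4 of 8 higher, and 0 without KKO replicate 2 at 24 h or without the 2 mixed libraries), and the plasma cell gene Jchain had at most 4 counts in a group. Macrophage and dendritic cell genes summed at 48 h to 18.7 to 19.4 CPM (WT) and 20.7 to 26.3 CPM (KKO), with 2 of 4 tested higher (Cd68 and Flt3) and C1qb and Clec9a at 0 in all libraries. At 24 h they summed to 16.9 to 17.7 and 15.4 to 17.9 CPM. CD8 T cell and natural killer genes summed to 13.9 to 15.5 and 15.6 to 18.1 CPM at 48 h and to 9.30 to 10.9 and 13.7 to 14.7 CPM at 24 h. Of the 6 tested, 2 were higher at 48 h (Cd8a and Cd8b1) and 1 was lower (Klrk1, from 4.34 to 2.46 CPM, adjusted p = 0.0215). None was called at 48 h without the 2 mixed libraries, and 0 were called at 24 h. Cd8b1 made up most of the sum at 48 h (7.78 CPM in WT and 10.8 CPM in KKO). KKO replicate 2 at 48 h, the lowest KKO library for 8 of the 9 genes, had the lowest KKO sum of that time for 5 of the 6 marker lists, CD4 T cell genes included, and the highest for B and plasma cell genes (47.4 CPM). The part of these cells in the changes of the 9 genes was not tested.

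**Figure D4:**
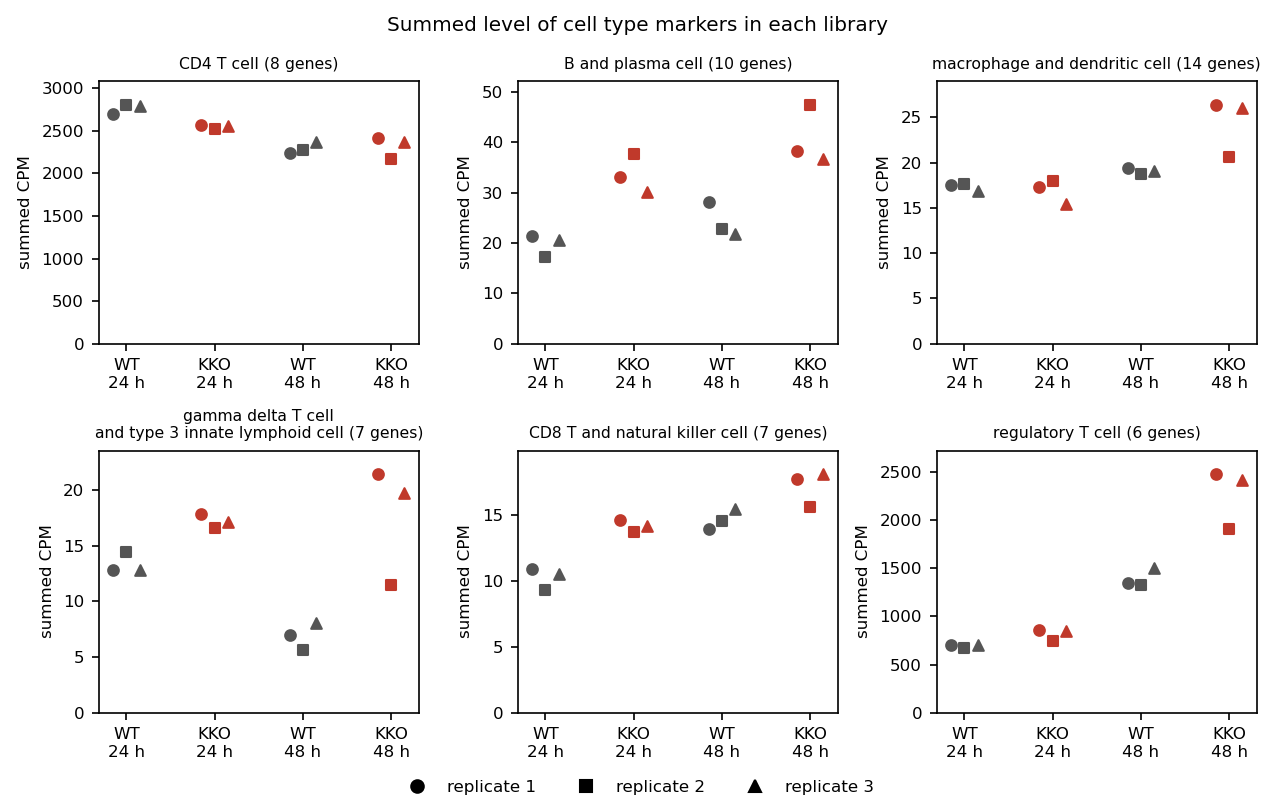
Summed CPM of each cell type marker list on a linear axis from 0, 1 point per library with a symbol for each replicate number, by genotype and time. The 3 KKO libraries lie above the 3 WT libraries at 48 h in every list except the CD4 T cell list, where the WT libraries lie within the range of the KKO libraries, 2172 to 2417 CPM.

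The genes most like each of the 9 were ranked by Pearson's r of log2 CPM over the 12 libraries, among genes averaging 2 CPM or more, as a description of libraries that share genotype and time. Il10 was followed most closely by Gnpda1 (0.959), Sbno2 (0.958) and Prf1 (0.948). Sbno2 also led for Il22 (0.910), ahead of Etv6 (0.908) and Gzma (0.902), and Gnpda1 led for Il1r1 (0.941), ahead of Fgd3 (0.936) and Gpkow (0.917). Il21 was most like Sema7a (0.979), Slc39a4 (0.954) and Stra6 (0.948). For Maf they included Gpkow (0.943) and Cipc (0.942), and for Ahr they were Phf8 (0.942), Irf2bpl (0.936) and Cipc (0.935), so that Maf and Ahr shared Cipc. Ccr6 was most like Fam129a (0.966), Ifih1 (0.965) and Nr4a1 (0.965). Rora was most like Plcxd1 (0.990), Nos2 (0.990) and Rgs11 (0.989), and Prdm1 most like Glb1 (0.985), Nedd4 (0.981) and Slc13a3 (0.979). Among the 9 themselves, r was 0.92 for Il10 with Maf and with Il22 and for Il21 with Prdm1, and -0.69 for Maf with Ccr6.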

How the data were processed

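RNA sequencing counts of 12 libraries were analysed, 3 in each of 4 groups. The values are expected counts that the authors made with RSEM and deposited without normalisation. FastQC, RSEM and mouse build mm10 are named in the submitters' processing notes, whereas the design text gives a human reference and the file's symbols are of mouse. The aligner, its version and the annotation are not given in the sources used here. Of the value columns, 6 matched no sample label and were left out.

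Expected counts were rounded and fitted in edgeR 4.0.16 (R 4.3.3; TMM scaling, filterByExpr, robust quasi-likelihood), 1 fit of all 12 libraries with 8 residual degrees of freedom. The code was also run on simulated counts in which only a small set of genes differed. In these data 60.8% of all genes tested were called with time in WT, so that run is no check of the calls given here. Of 32698 symbols 13196 were tested. P-values were adjusted over all tested genes by Benjamini-Hochberg. CPM used the scaled totals, and totals of 17786532 to 32607684 counts leave genes near 1 CPM with few counts. The SE of a log2 fold change is the fitted change over the square root of F.

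The genes and lists were chosen with earlier results of these data known. Besides the 9 genes and Keap1, the text names up to 4 called genes of each list with the largest change at 48 h, all tested genes of a list of targets with 0 or 1 call, and the 3 genes most like each member. Some genes that this rule names are not reported here, and counts and sums of the lists include them. Same-numbered WT libraries had correlations across times of 0.126, 0.103 and 0.343 in their deviations from the group means. WT replicate 1 of 24 h, however, correlated most with WT replicate 2 of 48 h, so a pairing of the WT numbers was not clear. The numbers did not pair KKO libraries across time (0.0287, 0.0852 and 0.0408) or WT with KKO (-0.317 to 0.224). The alternatives tried were DESeq2 1.42.0, limma-voom (limma 3.58.1), scaling by RLE or upper quartile, other filters and thresholds, the 6 compared libraries alone, a replicate block, a sex-linked covariate and leaving out libraries. Positions came from GENCODE M21 and promoter windows from RefSeq GRCm38.p6.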

Additional observations from a re-analysis of the deposited data

Results flagged for a closer look

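The genes listed here had genotype effects at 48 h and 24 h that differed in edgeR's test of the difference (log2 fold change at 48 h minus that at 24 h, adjusted over all genes tested, 4.18% of which were called). Ahr gave 2.02 ± 0.39 (SE, adjusted p = 0.0143), with KKO higher in 3 of 3 libraries at 48 h and the groups overlapping at 24 h. Ccr6 gave -1.95 ± 0.41 (SE, adjusted p = 0.0187), with KKO lower in 3 of 3 libraries at 48 h and overlap at 24 h.

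Among genes of the pathway lists the difference was upward for the transcription factor genes Batf (0.67, adjusted p = 0.0213), Irf4 (0.42, adjusted p = 0.00847) and Ets1 (0.49, adjusted p = 0.0457) and for the receptor gene Il6ra (1.16, adjusted p = 0.0122). Irf4 was called lower in KKO at 24 h and higher at 48 h. The difference was downward for Egr3 (-0.55, adjusted p = 0.0425), Il18rap (-1.54, adjusted p = 0.0174) and the signalling adaptor gene Sh2d1a (-0.52, adjusted p = 0.0399). In the marker lists it was downward for the receptor genes Klrk1 (-1.42, adjusted p = 0.0347) and Nrp1 (-1.38, adjusted p = 0.0224).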

How the results depend on the processing

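Over 24 alternatives, 1054 values of the 9 genes were recomputed: 1001 kept their direction and their side of the threshold, 32 lost a call, 13 gained one and 8 changed sign. At 48 h Maf, Ahr, Ccr6 and Prdm1 kept their calls in all 24, and Il10, Il22 and Il1r1 in the 23 in which they were tested. Il21 lost its call at an adjusted p under 0.01 and without the libraries named above.

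The count called between genotypes at 24 h was 1, and it was 2 with DESeq2, with the replicate block and with the share of Y-linked transcripts as a covariate, and 0 without the 2 mixed libraries. Il21 was the gene gained with the block (3.08, adjusted p = 0.00378) and with the covariate (2.82, adjusted p = 0.0317). The block used replicate numbers that did not pair WT with KKO libraries or KKO libraries across time. Leaving out each library in turn gave 0 to 2 at 24 h, 7 to 8 at 48 h, 1 to 4 for the difference between the times, 3 to 4 for time in WT and 6 to 8 for time in KKO. At 48 h the count was 8 with the block and 5 of 6 tested with a filter of 1 CPM in 6 libraries. For time in KKO it was 5 with that filter and 5 at an adjusted p under 0.01. For the difference between the times it was 4 with DESeq2, the block or the covariate (Il10 and Maf gained, adjusted p with the block 0.00881 and 0.0329), and 0 at an adjusted p under 0.01 or without the 2 libraries. Blocking on the replicate number within each genotype left 4 calls for time in WT, and the KKO time count at 8.

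Sign changes occurred in differences that were not called. The Ccr6 difference at 24 h was -0.0805 without WT replicate 3 and -0.06 without KKO replicate 2, both of 24 h, and at most 0.40 with another library left out. The Il10 time difference in WT was -0.35 without WT replicate 2 at 24 h and -0.27 without WT replicate 1 at 48 h, where that of Il22 was -0.0497, and the other omissions reached 0.52 and 0.80 for these 2 genes. The Ccr6 time difference in KKO was 0.0122, 0.0051 and 0.0179 without KKO replicate 2 at 24 h and KKO replicates 1 and 3 at 48 h, and -0.48 on omitting KKO replicate 2 of 48 h. Over all genes the leave-one-out counts ran from 132 to 505 at 24 h (307 as reported) and from 1405 to 5362 at 48 h (3209). For the difference between the times they ran from 143 to 3217 (552), with 54 without the 2 libraries. The cause was not tested. Genes with few counts, Il1r1 and Il10 in WT above all, are limited by depth.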
